A study of Rattus norvegicus with 4 samples.

Results

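The epidermal growth factor (EGF) receptor family and its ligands were examined in cultured smooth muscle cells of the rat aorta, which form the contractile middle coat of the artery. The 9 genes were the ligands Tgfa, Ereg, Areg, Hbegf, Btc and Nrg1 and the receptors Egfr, Erbb2 and Erbb3. They were taken as every probe set, a group of short probes for 1 transcript, whose annotation gave exactly 1 gene symbol and that symbol was one of the 9. The 9 genes, of 14217 with a probe set of 1 symbol, had 19 of the 20826 such probe sets and of 31099 in all. Of the 19, 10 were bright enough to be tested and 9 were not.

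The cells came from Sprague-Dawley rats and had 5 days in medium with 10% serum, followed by 3 days without serum. For the next 24 hours, 2 samples had interleukin-1 beta (IL-1b), an inflammatory cytokine, at 2.5 ng/mL, and 2 samples had the vehicle, 0.1% bovine serum albumin (BSA). There was 1 array a sample, and values are MAS5 intensities on a linear scale. Nothing in the labels says that the numbered samples were separate cultures. The p-values therefore measure no more than the spread between these samples, and that spread may be technical.

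Ligands of this family are made as membrane-bound precursors and are cut free by metalloproteases of the ADAM family. They bind receptor tyrosine kinases that pair with each other and signal through RAS and ERK, PI3 kinase and AKT, and STAT factors. Tgfa, Areg, Ereg, Hbegf and Btc bind Egfr, Ereg, Hbegf and Btc also bind Erbb4, and Nrg1 binds Erbb3 and Erbb4. Erbb2 has no known ligand of its own and acts as a partner. In arteries, Hbegf is known as a growth factor for smooth muscle, and Nrg1 is known for its roles in heart and Schwann cells.

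Among the ligands, Tgfa and Ereg rose with IL-1b and Nrg1 fell at its 1 tested probe set. Areg was at least 3.75-fold higher on these arrays without passing the threshold, Btc and Hbegf did not pass, and neither did Egfr or Erbb2. Of the 10 tested probe sets of the family, 3 passed as higher, 1 passed as lower and 6 did not pass, using limma with a Benjamini-Hochberg adjusted p of 0.05. Over all 18625 probe sets tested, 13.4% passed, 6.32% as higher and 7.11% as lower. The family was chosen with earlier results of these data known, so setting its count beside these shares is not a test. The groups did not overlap for 9 of the 10 tested probe sets, which held for 58.3% of all tested probe sets. The median log2 fold change was 0.28 over the 10 and 0.02 over all tested.

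IL-1b replicate 1 stood apart. Bacterial hybridisation controls, added in fixed amounts, read 3.50 times their vehicle mean there, against 0.95 times on IL-1b replicate 2. Array background, the 95th percentile of 27 dim bacterial controls, was 76.7 and 18.8 with IL-1b, replicate 1 given first as throughout, and 29.4 and 26.9 with vehicle. The log2 values correlated at 0.902 between the IL-1b arrays and at 0.948 between the vehicle arrays. Between arrays of different groups the correlations ran from 0.854 to 0.920, the highest being above that between the IL-1b arrays. Centring each array on its median moved the median log2 fold change of all probe sets by -0.21, and 34.4% of calls were then higher, against 47.1% as reported. All 6 smooth muscle markers were above background on every array. Their summed intensity was 11500 and 8630 on the IL-1b arrays, against 29700 and 30400 on the vehicle arrays. Of the endothelial markers, Tek was above background on IL-1b replicate 2 and both vehicle arrays, and Kdr on IL-1b replicate 2 alone. Pecam1 and Vwf were below background on all 4 arrays, and the leukocyte marker Ptprc (CD45) on 3 of 4. It read 94.9 on IL-1b replicate 1. The sum over 4 endothelial markers was 125 and 73.4 with IL-1b and 50.2 and 81.6 with vehicle. For 6 macrophage and leukocyte markers it was 961 and 1050 with IL-1b and 710 and 650 with vehicle, most of it from Cd14. For 3 fibroblast markers it was 812 and 1420 with IL-1b and 519 and 550 with vehicle. Over 3 Schwann and glial markers it was 183 and 58.1 with IL-1b, against 111 and 36.9 with vehicle. The 6 epithelial and mesothelial markers summed to 421 and 203 with IL-1b, against 305 and 279 with vehicle. Their part in the results was not tested, and in such bulk samples fewer cells of a type and less RNA per cell cannot be told apart.

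Promoters of 6 of the 9 genes (Egfr, Erbb2, Hbegf, Areg, Tgfa and Btc) were matched by symbol in the RefSeq table (rat build GRCr8), each from 250 bases before to 50 after the annotated start. The promoters of Tgfa, which rose, of Areg, which was higher without passing, and of Btc, which was lower without passing, are shown to set a ligand on each side beside its upstream sequence. Capitals mark matches, on either strand, to the NF-kB consensus of 10 letters, to the AP-1 site TGANTCA, to the cyclic AMP response element TGACGTCA and to the TATA box TATAAA.
Tgfa, chr4:120175469-120175768, plus strand: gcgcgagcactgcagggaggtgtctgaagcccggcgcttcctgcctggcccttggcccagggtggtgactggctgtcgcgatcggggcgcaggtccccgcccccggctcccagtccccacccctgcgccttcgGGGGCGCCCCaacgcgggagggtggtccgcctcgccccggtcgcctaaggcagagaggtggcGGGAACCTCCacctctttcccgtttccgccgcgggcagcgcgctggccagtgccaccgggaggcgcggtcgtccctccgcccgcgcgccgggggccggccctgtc
Areg, chr14:17265592-17265891, minus strand: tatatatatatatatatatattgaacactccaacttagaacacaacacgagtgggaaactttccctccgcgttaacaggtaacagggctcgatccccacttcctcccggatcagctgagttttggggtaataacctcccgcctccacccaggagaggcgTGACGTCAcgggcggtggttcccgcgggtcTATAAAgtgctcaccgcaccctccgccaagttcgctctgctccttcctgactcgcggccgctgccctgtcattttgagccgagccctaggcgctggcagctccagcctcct
Btc, chr14:16992418-16992717, plus strand: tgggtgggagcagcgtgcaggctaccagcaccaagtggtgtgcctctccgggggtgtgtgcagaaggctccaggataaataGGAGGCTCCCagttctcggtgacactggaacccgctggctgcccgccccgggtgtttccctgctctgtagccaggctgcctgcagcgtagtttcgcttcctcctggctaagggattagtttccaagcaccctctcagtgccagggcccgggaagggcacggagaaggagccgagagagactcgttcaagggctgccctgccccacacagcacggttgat
The Tgfa promoter held 2 NF-kB matches, with first bases 117 and 55 bases before the start. The Areg promoter held a cyclic AMP response element 91 bases and a TATA box 61 bases before the start. The Btc promoter held 1 NF-kB match, 169 bases before the start. Among 33469 promoters of the same length, 7.51% held the NF-kB consensus, 7.33% the AP-1 site, 1.83% the cyclic AMP response element and 14.2% the TATA box. None of these matches overlapped another. Those of Egfr and Hbegf held 0 matches to any of the 4, and that of Erbb2 held 1 NF-kB match, 3 bases before the start. A match is a string of letters and was not tested as a binding site.

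Tgfa, transforming growth factor alpha, is a high-affinity Egfr ligand, and both of its probe sets passed. At 1381449_s_at it read 223 and 185 on IL-1b replicates 1 and 2, against 32.3 and 65.6 on vehicle replicates 1 and 2. Both IL-1b arrays lay above both vehicle arrays. The log2 fold change was 2.01 ± 0.42 (SE, limma adjusted p = 0.022), or 4.02-fold. At 1387450_at Tgfa read 163 and 168 with IL-1b, against 5.88 and 28.9 with vehicle. The IL-1b arrays differed little from each other, and the vehicle arrays lay far apart, with vehicle replicate 1 below background and vehicle replicate 2 just above it. The log2 fold change was 3.12 ± 0.66 (SE, limma adjusted p = 0.024). Leaving out vehicle replicate 1 or 2 made it 2.32 or 3.91, and it was 3.67 with no offset and 2.44 with an offset at the 25th percentile. The first Tgfa probe set missed the threshold without vehicle replicate 1 (log2 fold change 1.55, adjusted p = 0.059), and both missed it without the intensity trend of the variance (adjusted p = 0.068 each).

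Ereg, epiregulin, a low-affinity ligand of Egfr and Erbb4, rose. It read 222 and 267 on the IL-1b arrays, against 55.6 and 93.2 on the vehicle arrays, all above background. The groups did not overlap, and each vehicle array lay far below both IL-1b arrays. Its log2 fold change was 1.68 ± 0.34 (SE, limma adjusted p = 0.019), or 3.21-fold. Ereg missed the threshold without vehicle replicate 1 (1.34, adjusted p = 0.068) and without the intensity trend (adjusted p = 0.067).

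Areg, amphiregulin, which binds Egfr alone, read 98.4 and 113 with IL-1b, against 27.0 and 20.8 with vehicle. Both vehicle values were below their array's background and both IL-1b values above it, so IL-1b was at least 3.75-fold higher. Such a bound sets the brighter group's geometric mean against background, or against the dimmer group's own value where that is higher. A bound of this kind describes the arrays read and carries no sampling error. The fitted log2 fold change was 1.93 ± 0.52 (SE), with a 95% interval of 0.69 to 3.16. Its limma adjusted p of 0.055 missed the threshold, and p without adjustment was 0.0078. Among the settings that kept every array, Areg passed without the intensity trend (limma adjusted p = 0.028) and with same-numbered arrays taken as pairs (0.037). It did not under quantile normalization (0.081), median centring (0.078) or with no filter (0.10). The log2 fold change was 2.02 and 1.83 without IL-1b replicates 1 and 2, and 2.08 and 1.77 without vehicle replicates 1 and 2.

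Hbegf, heparin-binding EGF-like growth factor, was well above background on every array. It read 570 and 703 with IL-1b, against 509 and 465 with vehicle. The IL-1b arrays were both higher, by an amount close to the gap between them. The log2 fold change of 0.38 ± 0.17 (SE, limma adjusted p = 0.22) did not pass, and its 95% interval of -0.03 to 0.79 holds no rise of 2-fold. Under median centring it was less precise, at 0.17 ± 0.41 (SE). Hbegf passed without IL-1b replicate 1 (0.53, adjusted p = 0.0035), and in no other setting run.

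**Figure D1:**
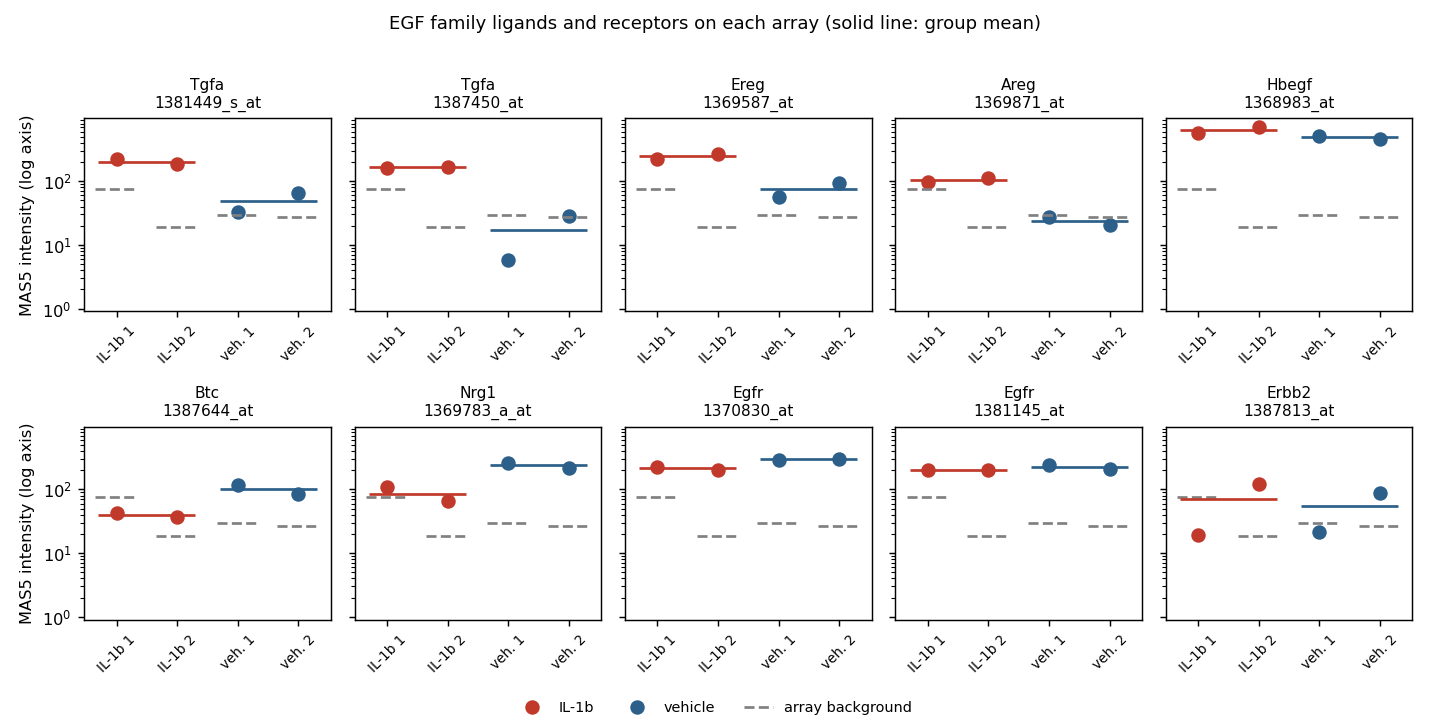
MAS5 intensity (log axis) of the 10 tested probe sets on each of the 4 arrays, IL-1b in red and vehicle in blue. Points are arrays, solid lines group means and dashed lines the background of each array. For Tgfa, Ereg and Areg both IL-1b points lie above both vehicle points, for Nrg1 and Btc below, and for Erbb2 the groups overlap.

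Btc, betacellulin, read 43.0 and 37.0 with IL-1b, against 117 and 86.2 with vehicle. The groups did not overlap, and the value on IL-1b replicate 1 was below that array's background of 76.7. The log2 fold change was -1.22 ± 0.46 (SE), with a 95% interval of -2.30 to -0.14 and a limma adjusted p of 0.14. It was -1.32 and -1.13 on the log2 scale without IL-1b replicates 1 and 2, and -1.01 and -1.43 without vehicle replicates 1 and 2.

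Nrg1, neuregulin 1, is a large gene with many splice forms, and 8 probe sets carried its symbol. The only one bright enough to be tested, 1369783_a_at, read 107 and 65.2 with IL-1b, against 264 and 218 with vehicle. Every array was above background and both IL-1b arrays were lower. The log2 fold change was -1.46 ± 0.33 (SE, limma adjusted p = 0.028), a 2.75-fold decrease. This call was lost without vehicle replicate 1 (-1.33, adjusted p = 0.22), without vehicle replicate 2 (-1.60, adjusted p = 0.098) and without the intensity trend (adjusted p = 0.084).

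Among the 7 untested probe sets of Nrg1, values ranged from 1.999 to 120. Of these, 1 and 3 were above background on the IL-1b arrays, against 3 and 1 on the vehicle arrays. Only 1370607_a_at had both vehicle arrays above background and both IL-1b arrays below it. It read 3.12 and 12.5 with IL-1b, against 64.2 and 49.2 with vehicle. At 1388258_at both IL-1b arrays were above background, at 120 and 19.7, against 22.9 and 17.2 with vehicle, both below background. The groups overlapped there, since IL-1b replicate 2 lay between the vehicle arrays. The decrease called here is that of 1369783_a_at, and most values of the other probe sets were below background. With no filter on brightness all 19 probe sets of the family were tested, 4 passed, and of the 8 of Nrg1 only 1369783_a_at did.

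**Figure D2:**
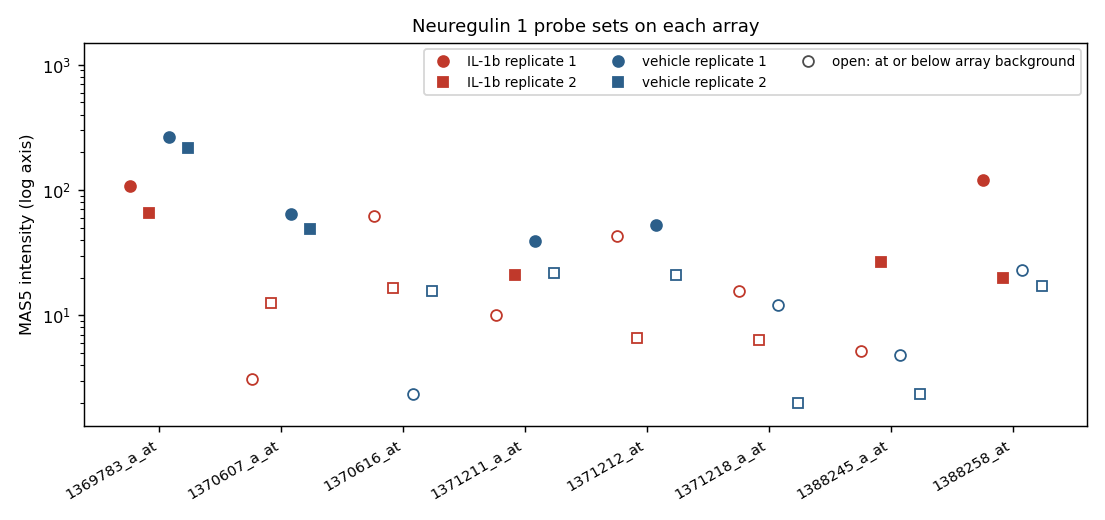
MAS5 intensity (log axis) of the 8 Nrg1 probe sets on each array, IL-1b in red and vehicle in blue, with open symbols at or below array background. At 1369783_a_at all 4 arrays are above background and both IL-1b arrays are lower, and most symbols of the other 7 probe sets are open.

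Among the receptors, Egfr was bright enough to be tested at 2 of its 3 probe sets. At 1370830_at it read 224 and 202 with IL-1b, against 288 and 303 with vehicle. The groups did not overlap, and the log2 fold change was -0.47 ± 0.20 (SE, 95% interval -0.94 to 0.01, limma adjusted p = 0.19). At 1381145_at Egfr read 202 and 199 with IL-1b, against 240 and 211 with vehicle, with a log2 fold change of -0.16 ± 0.22 (SE, 95% interval -0.67 to 0.35, adjusted p = 0.67). Both were lower with IL-1b without passing, and the intervals just given hold no 2-fold decrease. Under median centring the log2 fold changes were less precise, at -0.67 ± 0.38 and -0.37 ± 0.38 (SE). Without IL-1b replicate 1 the first passed (-0.54, adjusted p = 0.042). The other probe set, 1385413_at, was below background on all 4 arrays, at 34.8 and 4.56 with IL-1b and 4.62 and 11.9 with vehicle.

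Erbb2, the partner receptor without a ligand, read 19.3 and 123 with IL-1b, against 21.4 and 87.8 with vehicle. In each group replicate 1 was below background and replicate 2 above it, and the groups overlapped. Its log2 fold change of 0.17 ± 0.97 (SE, limma adjusted p = 0.93) had a 95% interval of -2.11 to 2.46, so a change of several fold in either direction was not detectable. The sign turned under quantile normalization (-0.04), median centring (-0.03) and without vehicle replicate 1 (-0.72) or IL-1b replicate 2 (-1.02). Erbb3, a receptor for neuregulins with little kinase activity of its own, was too dim to be tested. It read 11.2 and 4.72 with IL-1b, against 37.0 and 3.75 with vehicle, above background on vehicle replicate 1 alone.

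**Figure D3:**
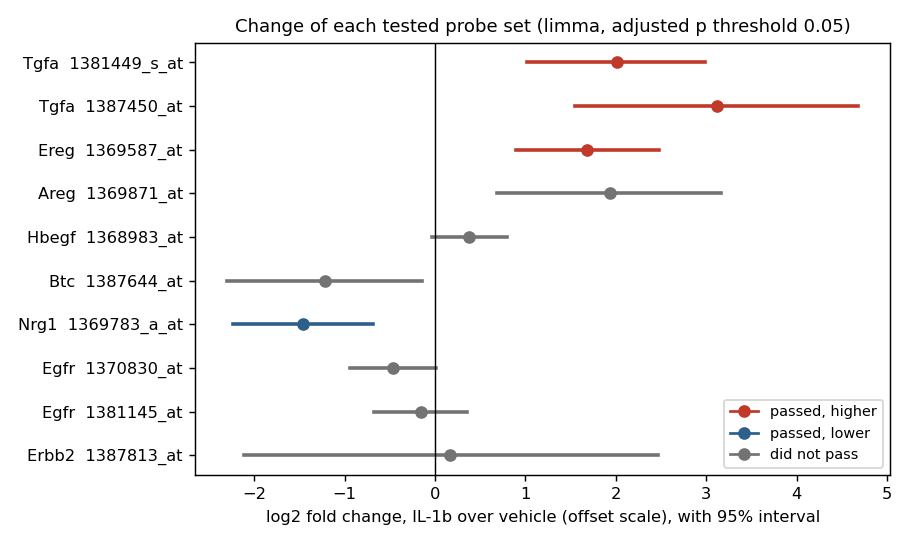
Log2 fold change of IL-1b over vehicle with its 95% interval for the 10 tested probe sets, in red where limma called it higher, in blue where lower and in grey where it did not pass. Tgfa and Ereg are in red at 1.68 to 3.12, Nrg1 in blue at -1.46, and the widest interval is that of Erbb2.

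Other members of the family were dim. Egf, the founding ligand, read 54.4 and 46.2 with IL-1b, against 59.9 and 56.6 with vehicle (log2 fold change -0.20 ± 0.50, SE, limma adjusted p = 0.83). The receptor Erbb4 read 25.9 and 12.9 with IL-1b, against 30.6 and 4.26 with vehicle, and was not tested. Nrg2 and Nrg4 were not tested either, and Epgn and Nrg3 were not analysed here.

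Btc, Areg, Ereg and Epgn lie next to each other on chromosome 14 in the GRCr8 annotation, in that order, followed by Mthfd2l and the chemokine genes Cxcl2 and Cxcl1. This run of neighbours was chosen with the members' values known. The ligands nearest to the chemokines did not all move the same way, with Ereg and Areg higher and Btc lower, of which Ereg passed. Mthfd2l, a mitochondrial folate enzyme between Epgn and Cxcl2, did not pass (log2 fold change 0.77 ± 0.23, SE, limma adjusted p = 0.073). It passed without IL-1b replicate 1 (0.93, adjusted p = 0.0013) or 2 (0.60, adjusted p = 0.039). Parm1, on the other side of Btc, did not pass either (0.79 ± 0.30, adjusted p = 0.15), and passed without IL-1b replicate 2 (1.01, adjusted p = 0.0064). The 4 tested chemokine genes of the run, Cxcl2, Cxcl1, Cxcl3 and Cxcl6, had fitted log2 fold changes of 5.58 to 9.34, all past the threshold. Cxcl2 was below background on both vehicle arrays and at least 310.0-fold higher with IL-1b, and its fitted value was 10.32 with no offset and 8.33 with an offset at the 25th percentile. That of Cxcl6 was 7.55 and 6.20 under the same settings. Without single arrays the values of Cxcl2, Cxcl1 and Cxcl6 moved by over 1.5 times, Cxcl2 to 10.03 and 8.66 and Cxcl6 to 8.01 and 5.87 without vehicle replicates 1 and 2, and Cxcl1 to 5.66 and 7.04 without IL-1b replicates 1 and 2.

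**Figure D4:**
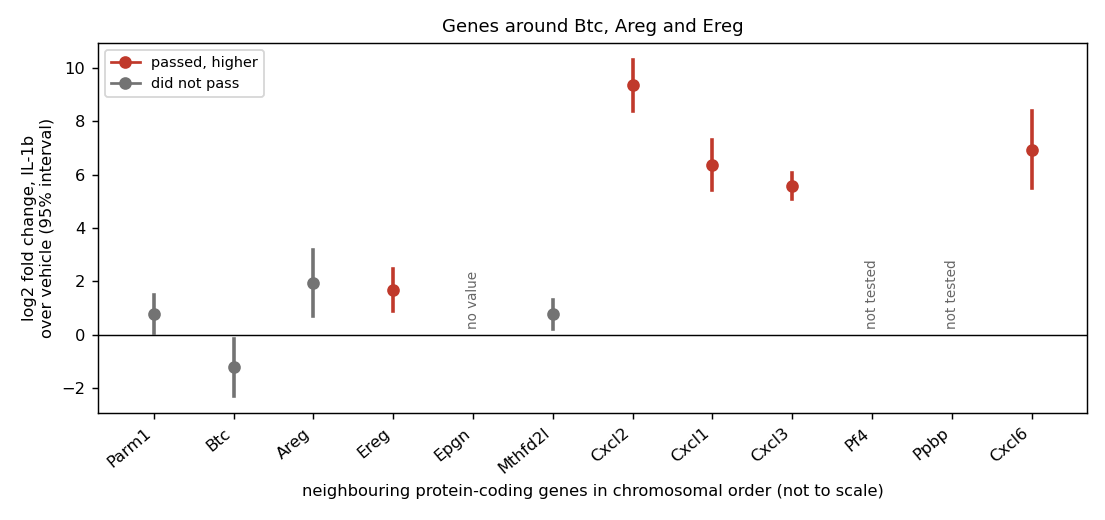
Log2 fold change of IL-1b over vehicle with its 95% interval for protein-coding genes around Btc, Areg and Ereg in chromosomal order. It is in red where limma called it higher and in grey where it did not pass. Left out are 1 gene with a provisional name and Rassf6, which was not tested. The fitted values of the ligands lie between -1.22 and 1.93 and those of the tested chemokines between 5.58 and 9.34. Areg and Cxcl2 had no vehicle array above background. Their bounds on these arrays are at least 3.75-fold and at least 310.0-fold.

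Genes whose log2 values over the 4 arrays, centred on their own mean, were closest to those of each called member were sought among 9931 genes. The measure is the root mean square difference, and with 4 arrays it describes little more than a shared direction and spread. For Ereg these were Eva1c (0.051), Lrp4 (0.113) and Gsr (0.129). For Tgfa at 1381449_s_at they were Zfpm1 (0.141), Stat5a (0.153) and Lnx1 (0.166). For Nrg1 they were Rnf122 (0.082), Ints6l (0.089) and Kif20a (0.089).

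Around the family, 8 lists of pathway genes held 125 tested genes, each by its brightest tested probe set, of which 31 rose, 16 fell and 78 did not pass. That is 37.6%, where 15.3% of all 10000 genes tested passed, 7.19% as higher and 8.13% as lower. Because the lists were chosen with earlier results of these data known, this difference is not a test of the pathway. The median log2 fold change of the 125 genes was 0.26, against -0.01 over all genes. The count of 47 was 33 and 31 without vehicle replicates 1 and 2, and 68 and 84 without IL-1b replicates 1 and 2. It was 22 without the intensity trend, where Timp1, Timp3, Adam9, Rhbdf2, Sdc3, Sdc4, Gab1, Grb14, Grb2, Socs5, Cav1, Dusp6 and Etv5, all described next, did not pass (adjusted p = 0.050 to 0.17). Nor did the genes named after their values were seen, Cd9 apart (0.10 to 0.16, a range that leaves out Pik3r3).

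Genes that cut, carry or guard ligand precursors counted 6 higher, 1 lower and 6 not past the threshold of 13 tested (median log2 fold change 0.56). Adam17, the main sheddase of Tgfa, Areg, Ereg and Hbegf, rose by 0.56 ± 0.13 (log2, SE, limma adjusted p = 0.036), as did Furin and Rhbdf1, all 3 named after their values were seen. Rhbdf2 (iRhom2), which brings ADAM17 to the cell surface, read 295 and 320 with IL-1b, against 153 and 151 with vehicle (log2 fold change 0.99 ± 0.21, adjusted p = 0.024). Its arrays agreed closely within each group. Adam9, another protease of the family, read 336 and 290 with IL-1b, against 165 and 90.9 with vehicle (1.31 ± 0.32, adjusted p = 0.038). Timp3, an inhibitor of ADAM17, fell to 2087 and 1623 with IL-1b, against 4625 and 5131 with vehicle (-1.40 ± 0.18, adjusted p = 0.0028), with 3 of 4 probe sets past the threshold. Timp1, an inhibitor of matrix metalloproteases, read 30876 and 12770 with IL-1b, against 3512 and 3521 with vehicle (2.50 ± 0.38, adjusted p = 0.0065). The IL-1b arrays of Timp1 lay far apart, and the change was 1.86 and 3.13 on the log2 scale without IL-1b replicates 1 and 2. Cnih1, whose fly relative escorts a TGF-alpha-like ligand out of the endoplasmic reticulum, did not pass (-0.18, adjusted p = 0.51), though it did without IL-1b replicate 2 (-0.27, adjusted p = 0.0043). The list's count of 7 was 3 and 2 without vehicle replicates 1 and 2, 2 under median centring and 0 without the intensity trend. With either vehicle array left out and under median centring Adam17, Furin, Rhbdf1 and Rhbdf2 did not pass (adjusted p = 0.13 to 0.64). Furin also missed the threshold with a robust prior (adjusted p = 0.055), and Adam9 did not pass without vehicle replicate 2 (0.90, adjusted p = 0.23) or under median centring (1.10, adjusted p = 0.090).

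Co-receptors and membrane partners moved both ways, with 3 higher, 4 lower and 4 not past the threshold of 11 tested (median log2 fold change -0.04). Cd44, a hyaluronan receptor whose heparan sulphate forms bind HB-EGF, read 3202 and 3069 with IL-1b, against 409 and 410 with vehicle (2.92 ± 0.14, SE, limma adjusted p = 6.6e-05). Cd82, a tetraspanin that associates with the EGF receptor, read 2375 and 2245 with IL-1b, against 598 and 572 with vehicle (1.97 ± 0.14, adjusted p = 0.00023). Both genes had little spread within either group. The heparan sulphate proteoglycans split, with Sdc4 higher at 1.21 ± 0.31 (adjusted p = 0.049) and Sdc3 lower at -1.33 ± 0.29 (adjusted p = 0.027). Sdc4 read 13710 and 6843 with IL-1b, against 4206 and 4179 with vehicle. Its log2 fold change was 0.71 and 1.71 without IL-1b replicates 1 and 2. The other tested probe set of Sdc3 was at -0.03 and did not pass, and at the called one IL-1b replicate 1 (75.8) was just below background. Named after their values were seen, Sdc1, Sdc2 and Cd9, a tetraspanin partner of the HB-EGF precursor, had log2 fold changes of -0.60, -0.89 and -1.15, all past the threshold. The integrin subunit Itgb1 did not pass (0.40, adjusted p = 0.29), though it did without IL-1b replicate 2 (0.68, adjusted p = 1.0e-08). The 7 calls became 3 with either vehicle array left out and 3 without the intensity trend. Sdc4 was lost without vehicle replicates 1 and 2 (adjusted p = 0.13 and 0.17), and so was Sdc3 (0.26 and 0.15). The Sdc4 call also ended with no offset (adjusted p = 0.051) and with the filter at the 60th percentile (0.057). Sdc1 and Sdc2 were lost with either vehicle array left out and under median centring.

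In the adaptors and the RAS-ERK chain 1 gene rose, 3 fell and 14 of 18 tested did not pass (median log2 fold change -0.08). Gab1, a docking protein that links the EGF receptor to PI3 kinase, read 134 and 219 with IL-1b, against 622 and 580 with vehicle (-1.78 ± 0.26, SE, limma adjusted p = 0.0050). Ksr1, a scaffold for RAF, MEK and ERK, read 22.7 and 31.4 with IL-1b, against 187 and 220 with vehicle (-2.69 ± 0.41, adjusted p = 0.0062), with 1 of 2 probe sets past the threshold. Both genes were lower on each IL-1b array, and Ksr1 was above background on IL-1b replicate 2 but not replicate 1. Grb14, an adaptor that binds the insulin receptor, fell by 1.15 ± 0.14 (adjusted p = 0.0027). Grb2, the adaptor that recruits SOS to activated receptors, rose by 0.69 ± 0.17 (adjusted p = 0.041) at its brightest probe set, and its 3 probe sets ran from -0.81 to 0.69. Ptpn11 (SHP2), a phosphatase needed for RAS activation, did not pass at its brightest probe set (-0.03, adjusted p = 0.91). The other of its 2 tested probe sets was at 0.83 and did not pass either. The count of 4 was 2 with either vehicle array left out, 7 and 11 without IL-1b replicates 1 and 2 and 1 without the intensity trend. Ksr1 was lost without vehicle replicates 1 and 2 (adjusted p = 0.080 and 0.17), and so was Grb2 (0.21 and 0.31), also under median centring (0.48, adjusted p = 0.52).

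For PI3 kinase, AKT and other effectors 3 genes rose, 2 fell and 17 of 22 tested did not pass (median log2 fold change 0.10). Stat5a, a transcription factor, read 468 and 369 with IL-1b, against 61.7 and 106 with vehicle (2.28 ± 0.31, SE, limma adjusted p = 0.0041). Pik3r1, the main regulatory subunit of PI3 kinase, read 474 and 476 with IL-1b, against 83.2 and 109 with vehicle (2.26 ± 0.23, adjusted p = 0.0011). Jak2, a cytokine receptor kinase, rose by 2.19 ± 0.26 (adjusted p = 0.0023). The lower IL-1b array of each was over 3 times the higher vehicle array. Pak1, a kinase activated by RAC, fell to 403 and 482 with IL-1b, against 1625 and 1556 with vehicle (-1.84 ± 0.16, adjusted p = 0.00047). Pik3r3, another regulatory subunit of PI3 kinase, also fell (-1.75 ± 0.24, adjusted p = 0.0043), and is named with its value known. Rac1 and Stat3 did not pass, at 0.11 and 0.51 (adjusted p = 0.72 and 0.10). Without IL-1b replicate 2 the list had 14 calls, and Rac1 (0.22, adjusted p = 0.015) and Stat3 (0.67, adjusted p = 1.4e-07) were among them. Stat3 also passed without IL-1b replicate 1 (0.35, adjusted p = 0.00076) and under quantile normalization (0.44, adjusted p = 0.042).

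Receptor inhibitors and endocytosis genes counted 2 higher, 3 lower and 16 not past the threshold of 21 tested (median log2 fold change 0.22). Errfi1 (MIG6), which binds the EGF receptor kinase domain and blocks it, read 429 and 468 with IL-1b, against 1290 and 1222 with vehicle (-1.47 ± 0.15, SE, limma adjusted p = 0.00095). The gap between groups was many times the spread within them. Cav1, the coat protein of caveolae, fell by 1.02 ± 0.18 (adjusted p = 0.010), with all 3 probe sets past the threshold. Socs5, which promotes EGF receptor breakdown, rose by 1.17 ± 0.19 (adjusted p = 0.0089). Socs3, a cytokine signalling inhibitor below background on both vehicle arrays, was at least 4.36-fold higher with IL-1b (adjusted p = 0.029). The list had 5 calls, against 2 with either vehicle array left out, 11 and 13 without IL-1b replicates 1 and 2, 3 under median centring and 2 without the intensity trend. Cav1 was lost without vehicle replicates 1 and 2 (adjusted p = 0.16 and 0.19), as was Socs3 (0.10 and 0.089). Socs5 was lost under median centring (0.96, adjusted p = 0.17).

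ERK feedback inhibitors counted 2 higher, 2 lower and 8 not past the threshold of 12 tested (median log2 fold change 0.55). Spry1 (Sprouty 1), which damps growth factor signals to ERK, read 159 and 109 with IL-1b, against 900 and 888 with vehicle (-2.71 ± 0.22, SE, limma adjusted p = 0.00040). Dusp1, a MAP kinase phosphatase, read 561 and 907 with IL-1b, against 2894 and 2845 with vehicle (-2.00 ± 0.23, adjusted p = 0.0018). Dusp6, a phosphatase that acts on ERK, read 2097 and 2385 with IL-1b, against 1050 and 992 with vehicle (1.13 ± 0.14, adjusted p = 0.0031). Inhibitors of the same class thus ran in opposite directions in these arrays. Spred3, related to the Sprouty proteins, rose by 1.58 ± 0.22 (adjusted p = 0.0044), with 1 of 2 probe sets past the threshold, and for Dusp6 2 of 3 were. The count of 4 was 10 and 7 without IL-1b replicates 1 and 2, and Dusp6 was lost under median centring (0.92, adjusted p = 0.13).

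Growth factor response genes, which cytokines and other stimuli also induce, had 14 higher, 1 lower and 12 not past the threshold of 27 tested (median log2 fold change 0.94). Egr2, an early-response transcription factor below background on both vehicle arrays, read 302 and 531 with IL-1b, against 12.2 and 23.0 with vehicle, at least 14.2-fold higher (limma adjusted p = 0.0014). The other of its 2 tested probe sets had a log2 fold change of 1.81 and did not pass. Klf4, a factor known to repress smooth muscle contractile genes, read 754 and 1353 with IL-1b, against 93.1 and 94.9 with vehicle (3.35 ± 0.29, SE, adjusted p = 0.00051). The IL-1b arrays of both genes differed, replicate 2 being the higher, and both lay far above vehicle. Maff, a small bZIP factor, rose by 3.91 ± 0.45 (adjusted p = 0.0018), or by 3.22 and 4.59 without vehicle replicates 1 and 2. Etv5, an ETS factor induced by ERK, rose by 3.14 ± 0.66 (adjusted p = 0.023), or by 2.16 and 4.12 without vehicle replicates 1 and 2, and 1 of its 2 probe sets passed. For Maff and Etv5 1 of the 2 vehicle arrays was above background. Ier3 rose by 2.31 ± 0.17 (adjusted p = 0.00031), and Jund, an AP-1 subunit, did not pass at its brightest probe set (0.20, adjusted p = 0.48), though it did without IL-1b replicate 2 (0.34, adjusted p = 0.00077). The other of its 2 tested probe sets passed as higher, at a log2 fold change of 1.65. Srf, serum response factor, was lower at -0.86 ± 0.16 (adjusted p = 0.013), the 1 such member, and is named with its value known. The 15 calls became 9 without the intensity trend. Srf was lost without vehicle replicates 1 and 2 (adjusted p = 0.086 and 0.13) and under median centring (0.12).

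**Figure D5:**
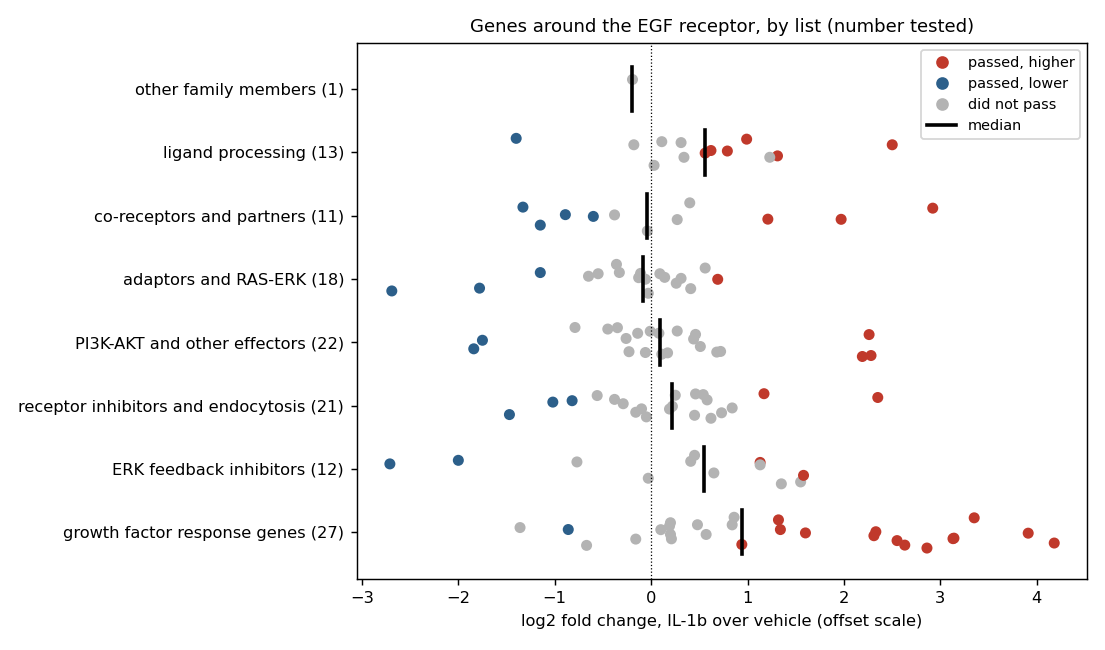
Log2 fold change of IL-1b over vehicle for each tested gene of the 8 pathway lists, in red where limma called it higher, in blue where lower and in grey where it did not pass, with a black bar at each list's median. Growth factor response genes have their median at 0.94 and 14 red points, and co-receptors split into 3 red and 4 blue points.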

How the data were processed

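RNA of 4 samples was made into biotin-labelled cRNA and read on 1-colour Affymetrix rat arrays, per the labels. The authors deposited MAS5 intensities on a linear scale, per the submitters' processing notes, with settings not given in the sources used here. The mean of each array without its lowest and highest 2% was 250.1, so nothing was rescaled. MAS5 scaling fixes only an array's general level. Symbols came from the platform annotation.

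An offset of 5.49, the 10th percentile, was added before log2, which understates changes of dim genes, and every fold change is on that scale unless given as a bound. Leaving out 57 control probe sets, those with a mean log2 value at or above the 40th percentile (5.37) were kept. limma 3.58.1 in R 4.3.3 (lmFit, eBayes with an intensity trend) fitted 18625 probe sets, with 2 residual and 4.91 prior degrees of freedom, and was tested on simulated data. Adjusted p values are Benjamini-Hochberg over all of them. Precision is limited by the number of arrays.

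The members and lists were chosen with earlier results of these data known, as was the background from control probe sets. Genes named from a list were its 4 largest called changes without overlap, its 2 brightest genes, and others marked as named after their values were seen. Intensities of different probe sets do not rank abundance. The labels do not say whether the replicate numbers pair the samples. Deviations of same-numbered arrays correlated at 0.0912, a value that cannot decide this with 2 arrays a group. Alternatives were other offsets, normalizations, filters and priors, the replicate block, the mean over a gene's probe sets and leaving out each array, where the lone sample's spread was taken to equal that of the other group.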

Additional observations from a re-analysis of the deposited data

How the results depend on the processing

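Without the intensity trend all 4 calls of the family were lost (limma adjusted p = 0.067 to 0.084). The 1 probe set past the threshold there was that of Areg (limma adjusted p = 0.028). Calls of the family stayed 4 under quantile normalization, median centring, a robust prior, no filter, no offset and 1 at the 25th percentile. They were 2 with a filter at the 60th percentile, which leaves 5 of the 10 probe sets tested, 1 without the intensity trend, and 1 to 8 when single arrays were left out. Over all probe sets the count of 2503 was 1637 under median centring, 963 without the intensity trend and 1357 to 8666 without single arrays. The pathway lists' 47 genes were 22 without the intensity trend and 31 to 84 without single arrays. Leaving out an IL-1b array takes the spread from the vehicle pair alone, and leaving out a vehicle array takes it from the IL-1b pair. The replicate block took same-numbered arrays as pairs, which the labels do not state. With it 3276 probe sets, 5 family probe sets (Areg added, limma adjusted p = 0.037) and 55 pathway genes passed. Taking the mean of a gene's probe sets gave 49 pathway genes.

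Directions that turned belonged to genes that did not pass. Erbb2 was -0.04 under quantile normalization, -0.03 under median centring and -1.02 to 1.36 without single arrays. Under median centring Rac1 was -0.10 and Jund -0.01. Without single arrays Rac1 ran from -0.01 to 0.22 and Ptpn11 from -0.09 to 0.03. Low signal limits Erbb2, Erbb3 and most Nrg1 probe sets.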
